A study of Saccharomyces cerevisiae with 137 samples.

Results

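Yeast lacking the transcription factor Swi4 (dSWI4) was compared in the cold with 5 strains that lack another factor, namely Cin5, Gln3, Hap4, Hmo1 or Zap1. The members are the arrays taken at 30 and 60 min of cold shock, averaged per culture flask, with each strain weighted equally. They number 48 of the 137 arrays of the series, 8 of dSWI4 and 40 of the other 5 deletion strains, and come from 4 dSWI4 flasks and 21 other flasks. The other flasks are 4 each of dCIN5, dHAP4, dHMO1 and dZAP1 and 5 of dGLN3, of which 3 have both times. All 6 deletion strains are in the BY4741 background and were grown at 30 °C in YEPD with 200 µg/mL of the antibiotic G418, to which the deletion cassette gives resistance, before the flask was moved to 13 °C. Wild type flasks (9 arrays, 5 flasks, 1 of them from BY4739) had no G418 and enter no test here. All wild type arrays were on coated slides, and wild type flasks 0 and 1 were on GCAT chips, while all deletion arrays were on Ontario chips. Wild type values are given for reference. Each array compares 1 shifted sample with the unshifted t0 sample of the same flask, so a value is a change since t0 and not a level. A higher or lower value in dSWI4 can come from its cold sample or its t0 sample, and these cannot be told apart in the ratio. The design had no 15 min sample of dSWI4.

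Swi4 is the DNA-binding subunit of SBF, the complex with Swi6 that turns on many genes at the passage from G1 to S phase, among them G1 cyclins and genes of budding and wall construction. A related complex, MBF, pairs Swi6 with Mbp1 and turns on genes of DNA synthesis. SBF also works with Slt2, the last kinase of the cell wall integrity pathway, whose transcription factor Rlm1 turns on wall genes.

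The values are scaled log ratios of the shifted over the t0 sample as the authors deposited them. The spread of each array was already set to about 1 (scaled median absolute deviation 0.9979 to 1.003), so a difference of 1 is about 1 such spread and no fold change can be read from it. Of 6178 frames on the array, 5586 to 6142 were measured per array used (median 5971). Flask means of dSWI4 correlated with each other across genes with r of 0.546 to 0.738. Of the other flasks, dGLN3 flask 2 stood farthest from dSWI4, with a median r of 0.141, and dHMO1 flasks 3 and 4 followed with 0.33 and 0.335. The t60 arrays of dGLN3 flask 2 and dHMO1 flask 3 resembled recovery in an earlier analysis, not shown here, and were kept in the main fit. Slide coating differed: dSWI4 flask 1 and the strains other than dHAP4 were on coated slides, and dSWI4 flasks 2 to 4 and all dHAP4 flasks on uncoated ones. The labels place 2 flasks of a strain on 1 day but do not say which, so day could not be tested. Because ratios give no levels, neither the loss of a deleted transcript nor the mating type could be read. SWI4 itself had cold values of -0.24, -0.13, 0.28 and -0.04 in dSWI4 flasks 1 to 4, within the -0.90 to 1.11 of the other 21 flasks. Its difference was -0.08 ± 0.29 (SE, limma, unadjusted p = 0.774).

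In the cold, 7 of 6039 genes tested differed between dSWI4 and the other deletion strains (0.116%; limma, Benjamini-Hochberg adjusted p below 0.05). YPL088W, ZNF1, MET16 and NPL4 were higher in dSWI4 (4 genes, 0.0662%). GIC2, TOS4 and SUT1 were lower (3 genes, 0.0497%). GIC2 and TOS4 are both SBF targets. At an unadjusted p below 0.05 there were 478 genes (7.92%), 258 higher (4.27%) and 220 lower (3.64%). All dSWI4 flasks lay above the mean of every other strain for 122 genes (2.02%) and below it for 139 (2.3%). They lay above every single flask of the other strains for 6 genes (0.0994%), among them YPL088W, MET16 and NPL4, and below every flask for 4 (0.0662%), among them TOS4. The median difference over all genes was -0.01, and 2979 of 6039 differences were positive.

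**Figure D1:**
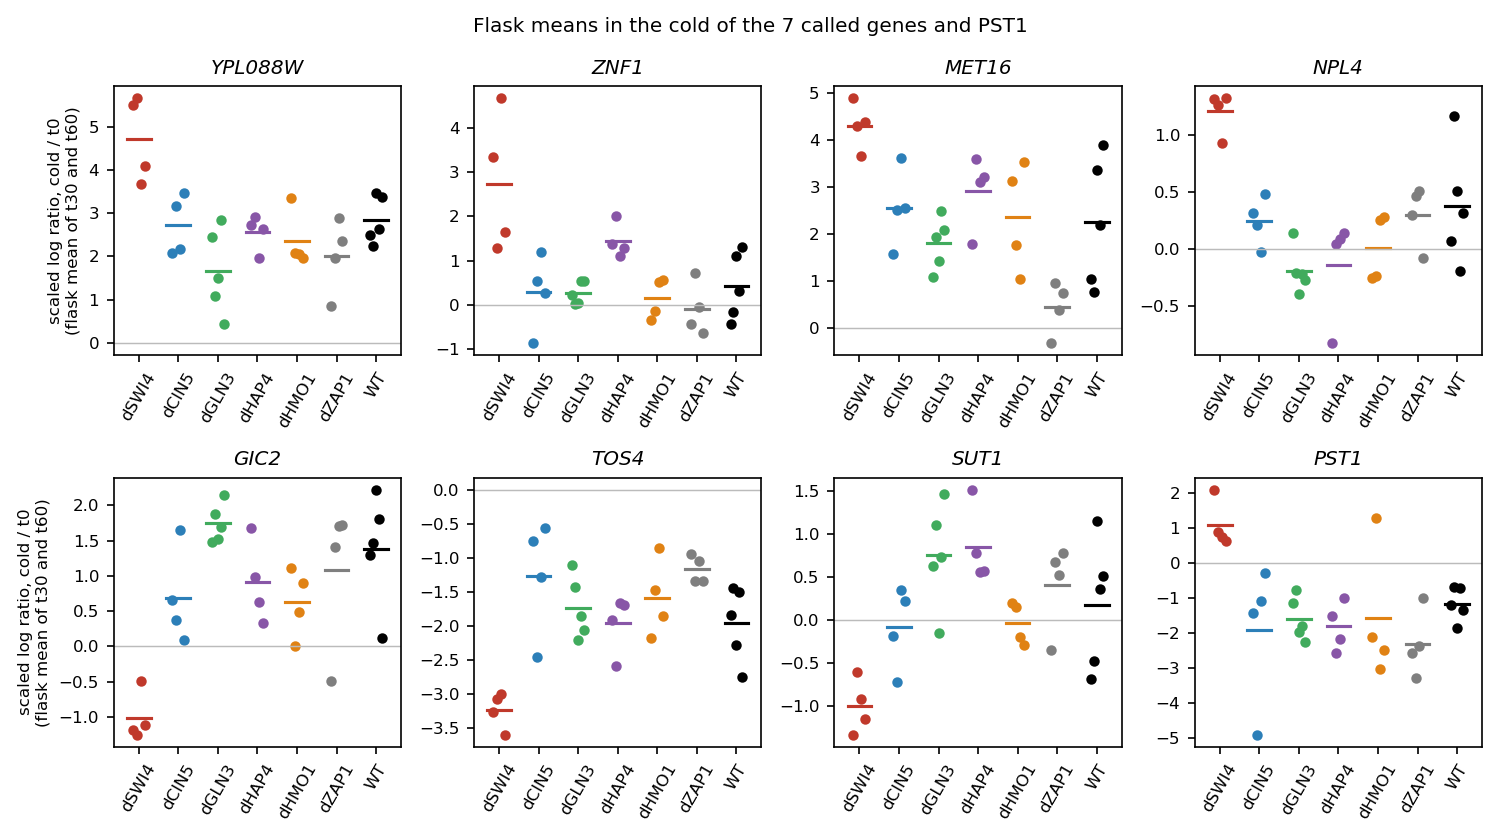
Flask means of the t30 and t60 arrays (scaled log ratio of cold over t0, vertical axis) for the 7 called genes and PST1, by strain (horizontal axis); each point is 1 flask and each bar the strain mean. The 4 dSWI4 flasks of TOS4 lie between -3.59 and -2.996, below all 21 flasks of the other deletion strains, while 1 dZAP1 flask of GIC2 at -0.49 reaches the dSWI4 flasks.

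**Figure D2:**
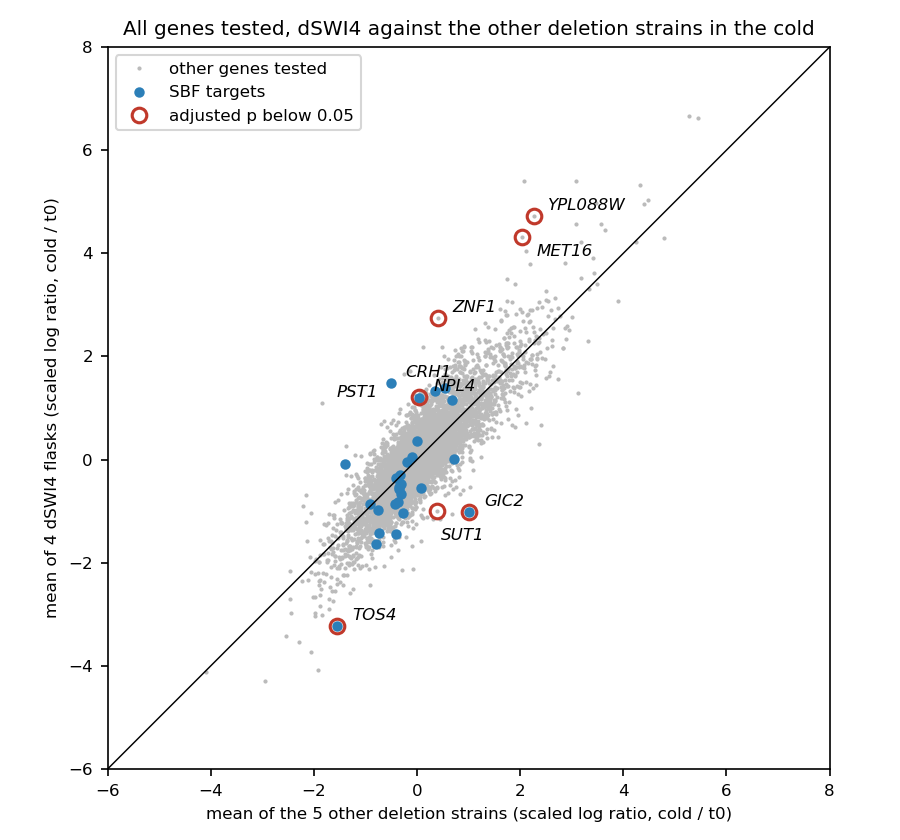
Mean of the 4 dSWI4 flasks (vertical axis) against the mean of the 5 other deletion strain means (horizontal axis), both as scaled log ratios of cold over t0, for the 6039 genes tested; filled blue points are SBF targets, red rings are genes with an adjusted p below 0.05, and the line marks equal values. YPL088W, MET16, ZNF1 and NPL4 lie above the line and GIC2, SUT1 and TOS4 below it, and the blue point inside the NPL4 ring is TOS1.

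GIC2 encodes an effector of the GTPase Cdc42 that acts in bud site polarity. Its flask means in dSWI4 were -1.19, -1.25, -0.48 and -1.12. The means of the other strains were 0.69 in dCIN5, 1.74 in dGLN3, 0.91 in dHAP4, 0.62 in dHMO1 and 1.09 in dZAP1. GIC2 was thus below t0 in every dSWI4 flask and above t0 on average in every other strain, and the groups overlapped through 1 of 21 flasks. The difference was -2.02 ± 0.34 (SE, adjusted p = 0.00862), and the 5 wild type flasks, from 0.11 to 2.22, all lay above the dSWI4 flasks. In recovery at 30 °C the dSWI4 flask means of GIC2 were 0.37, 0.43, 1.302 and -0.26, and the recovery means of the other strains ran from -0.40 to 0.45. The change of the difference between cold and recovery was itself past the threshold for GIC2 (-2.34 ± 0.41, adjusted p = 0.00541).

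TOS4 encodes a chromatin-associated protein with a forkhead-associated domain, made in G1. Its flask means were -3.25, -3.07, -2.996 and -3.59 in dSWI4. The other strain means ran from -1.96 in dHAP4 to -1.16 in dZAP1, and the lowest single flask among them was at -2.59. TOS4 was therefore below t0 in all 6 strains and lowest in dSWI4, with no overlap with the 21 other flasks or with the 5 wild type flasks (-2.74 to -1.44). The difference was -1.69 ± 0.30 (adjusted p = 0.00862). At t30 alone it was -2.30 ± 0.34 (adjusted p = 0.00303) and at t60 alone -1.18 ± 0.46 (adjusted p = 0.51). The groups overlapped at t60, where the dSWI4 flasks ran from -2.94 to -2.31. The lowest t60 flask was at -2.60 in dHAP4, -2.51 in dHMO1, -2.45 in dCIN5 and -2.75 in wild type. The t60 minus t30 change of the TOS4 difference, 0.94, was not past the threshold.

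SUT1 encodes a transcription factor of sterol uptake. Its flask means were -1.33, -0.60, -0.92 and -1.14 in dSWI4, against strain means from -0.08 in dCIN5 to 0.85 in dHAP4. One dCIN5 flask at -0.72 overlapped the dSWI4 flasks. The difference was -1.38 ± 0.28 (adjusted p = 0.0392). In recovery the SUT1 mean was -1.40 in dSWI4, and the mean of dZAP1 was also -1.40.

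YPL088W encodes a putative aryl alcohol dehydrogenase. Its flask means were 5.49, 5.65, 3.67 and 4.08 in dSWI4, and the strain means of the others ran from 1.66 in dGLN3 to 2.72 in dCIN5. It was above t0 in all 25 flasks and highest in dSWI4, with no overlap with other flasks, the highest of which was at 3.47. The difference was 2.46 ± 0.42 (adjusted p = 0.00862). The t60 arrays alone gave 3.48 ± 0.60 (adjusted p = 0.0125) and the t30 arrays alone 1.37 ± 0.57 (adjusted p = 0.782). YPL088W also had a recovery mean of 2.35 in dSWI4 against 0.25 for the others.

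MET16 encodes the reductase of activated sulfate in methionine synthesis. Its flask means were 4.90, 4.30, 3.66 and 4.39 in dSWI4. The other strain means were 0.45 in dZAP1, 1.81 in dGLN3, 2.38 in dHMO1, 2.57 in dCIN5 and 2.93 in dHAP4. No flask of the other deletion strains reached the dSWI4 flasks, the highest at 3.62 lying just under the lowest dSWI4 flask, while 1 of 5 wild type flasks, at 3.90, did. The difference was 2.28 ± 0.40 (adjusted p = 0.00862).

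NPL4 encodes a cofactor of the Cdc48 segregase that handles ubiquitinated proteins. Its flask means were 1.31, 1.26, 0.93 and 1.32 in dSWI4, and the other strain means ran from -0.19 in dGLN3 to 0.30 in dZAP1. No other flask came above 0.50, while 1 of 5 wild type flasks reached 1.16. The difference was 1.16 ± 0.22 (adjusted p = 0.021).

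ZNF1 encodes a zinc cluster transcription factor of respiratory growth. Its flask means were 3.34, 1.29, 4.68 and 1.64 in dSWI4, which spread more than those of the other called genes. The other strain means ran from -0.10 in dZAP1 to 1.44 in dHAP4, and 2 of 21 other flasks lay above the lowest dSWI4 flask. The difference was 2.33 ± 0.42 (adjusted p = 0.00862). At t30 alone it was 3.24 ± 0.55 (adjusted p = 0.0124), and at t60 alone 1.42 ± 0.42 (adjusted p = 0.267). The t60 minus t30 change of the ZNF1 difference was -1.85 and did not pass the threshold.

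With slide coating as a term in limma no gene was called (248 at an unadjusted p below 0.05), and none was called on coated slides alone (190). The differences within coatings kept their sign for all 7 genes. On uncoated slides, where dSWI4 flasks 2 to 4 meet dHAP4 alone, GIC2 differed by -1.86, TOS4 by -1.26, SUT1 by -1.74, YPL088W by 1.90, MET16 by 1.18, ZNF1 by 1.10 and NPL4 by 1.31. On coated slides, where dSWI4 has 1 flask, the differences were -2.23 for GIC2, -1.82 for TOS4, -1.59 for SUT1, 3.30 for YPL088W, 3.10 for MET16, 3.19 for ZNF1 and 1.22 for NPL4. Without dSWI4 flask 1, the coated one, limma called no gene (439 at an unadjusted p below 0.05), and adjusted p was 0.15 for every called gene but SUT1, which had 0.323. The fit without strain dGLN3 called 2 genes and that without dZAP1 called 2. Arrays of dHMO1 at 15 min, which are not used here, ran against each other within 1 dye orientation (r = -0.476), so the direction of dHMO1 is not settled. That pair was flasks 3 and 4, which had r of 0.412 at t30 and 0.43 at t60 in the arrays used. Flasks 1 and 2, of the other dye orientation, had r of -0.0506 at t30 and 0.44 at t60. With the sign of dHMO1 flask 4 turned, ZNF1, NPL4 and GIC2 kept their calls, and adjusted p was 0.146 for YPL088W, 0.161 for MET16, 0.148 for TOS4 and 0.0578 for SUT1. With the sign of dHMO1 flask 2 turned, 4 genes were called, 3 of them among the 7.

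Both SBF targets that passed the test were lower in dSWI4. Of 30 listed genes 29 were on the array and 27 were tested. After adjustment none was higher and 2, GIC2 and TOS4, were lower, against 0.0662% and 0.0497% of all genes. At an unadjusted p below 0.05, 5 were higher and 4 lower, against 4.27% and 3.64% of all genes. The list median was -0.19, against -0.01 for all genes. Of the 27 differences 12 were positive, against 2979 of all 6039 genes. The list median was -0.046 on uncoated slides, -0.175 on coated slides and -0.0972 with a coating term. No SBF target was called on uncoated slides or with that term. The median of the strain means over the list was -0.53 in dSWI4, close to -0.50 in dHAP4 and -0.44 in dHMO1, and -0.19 in dCIN5, -0.17 in dZAP1 and -0.06 in dGLN3. At t30 alone the list median difference was -0.37, and at t60 alone it was 0.06.

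Among the SBF targets below the others without passing the adjustment were 2 regulators of transcription. PLM2, a relative of TOS4, had flask means of -1.57, -0.26, -2.21 and -1.70 in dSWI4 and strain means from -0.99 to 0.48 elsewhere (difference -1.03 ± 0.31, adjusted p = 0.289). YOX1, a homeobox repressor of M/G1 genes, had -1.09, -0.44, -1.03 and -1.56 (difference -0.76 ± 0.33, adjusted p = 0.57). For PLM2 and YOX1 the flasks of the groups overlapped.

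Among the SBF targets above the others without passing the adjustment were CRH1, TOS1, TOS6 and PCL1, while other SBF targets of the wall had negative differences, among them FKS1, a glucan synthase, at -0.64 ± 0.41 and SRL1, a mannoprotein, at -0.84 ± 0.44. CRH1, a transglycosylase that links chitin to glucan, had flask means of 2.69, 1.81, 0.80 and 0.62 in dSWI4, all above the highest other strain mean of -0.05, and 3 of 21 other flasks overlapped. Its difference was 1.98 ± 0.53 (adjusted p = 0.21). TOS1, a wall protein, had 1.53, 1.39, 0.97 and 0.92 in dSWI4 with a difference of 1.17 ± 0.42 (adjusted p = 0.407). TOS6, a predicted wall protein, had -0.71, 0.02, 0.79 and -0.43 (difference 1.31 ± 0.46, adjusted p = 0.372), so it stayed near t0 in dSWI4 while the other strain means ran from -2.02 to -0.42. PCL1, a G1 cyclin of the kinase Pho85, had 2.22, 1.31, 1.34 and 0.65 (difference 0.83 ± 0.32, adjusted p = 0.468), and 9 of 21 other flasks overlapped.

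Of 14 G1 regulators none was called, and the list median was -0.05 in dSWI4, -0.04 in dGLN3, -0.01 in dHAP4, 0.03 in dHMO1, 0.15 in dZAP1 and 0.20 in dCIN5. SRL3, a paralog of the Swi4 inhibitor Whi5, was the gene with the smallest p of the list: 2.87, 2.40, 0.75 and 0.83 in dSWI4 against strain means from -0.98 to 0.76 (difference 1.85 ± 0.49, adjusted p = 0.18). NRM1, a corepressor of MBF, went the other way, with -1.06, -0.02, 0.07 and -0.67 in dSWI4 against strain means from 0.15 to 1.29 (difference -1.09 ± 0.34, adjusted p = 0.316). Neither SRL3 nor NRM1 separated the groups flask by flask, 4 other flasks overlapping in each.

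**Figure D3:**
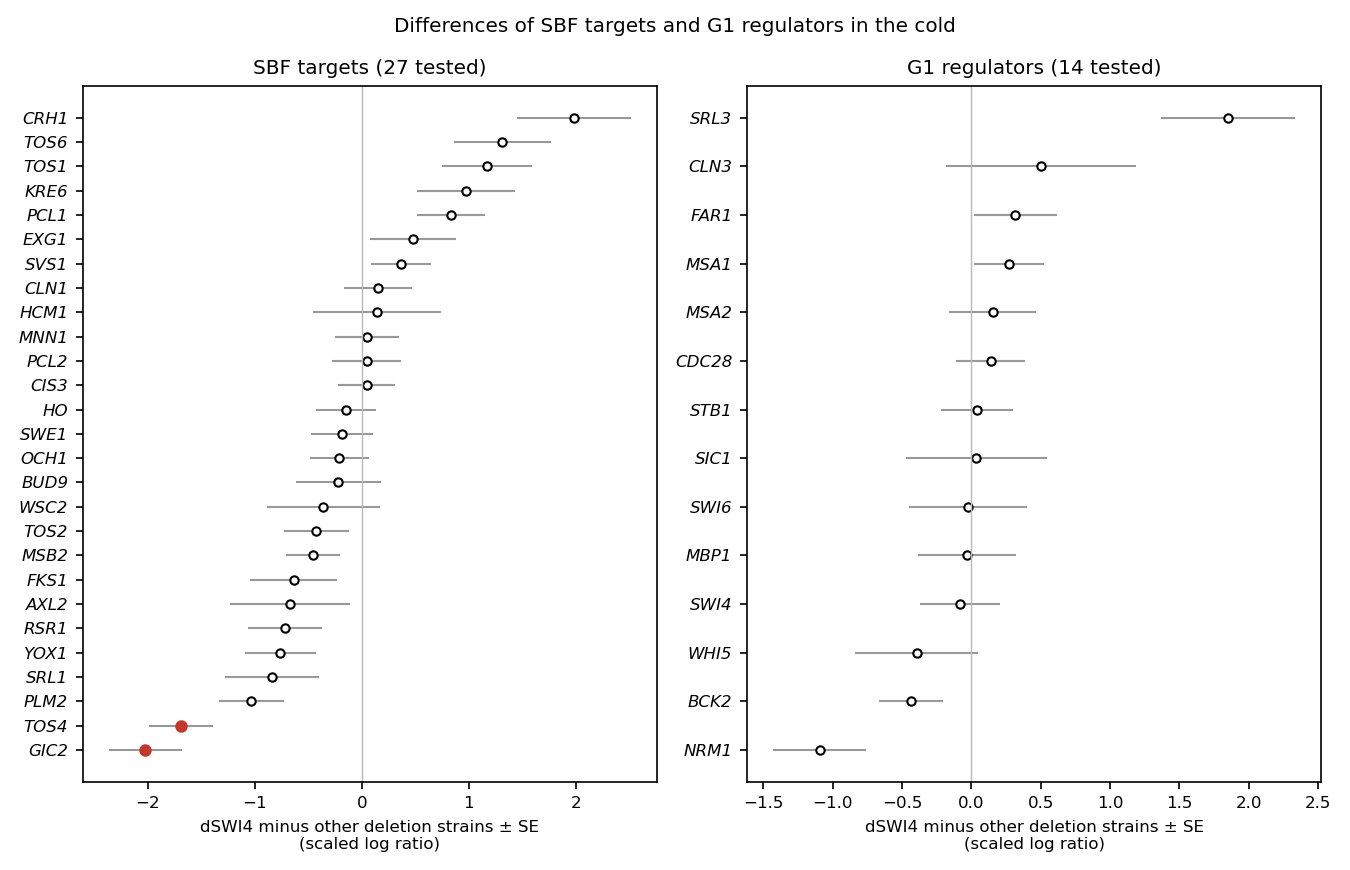
Differences of dSWI4 from the other deletion strains in the cold (scaled log ratio, horizontal axis) with their SE for the 27 SBF targets and 14 G1 regulators tested (vertical axis); red points have an adjusted p below 0.05 and open points do not. GIC2 and TOS4 are the red points, at -2.02 and -1.69, and CRH1 is the highest SBF target at 1.98.

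Other cell cycle lists gave no called gene. Of 24 MBF and DNA synthesis genes 2 were lower at an unadjusted p below 0.05, against 3.64% of all genes. They were POL2, the catalytic subunit of DNA polymerase epsilon (-1.08 ± 0.33, adjusted p = 0.31), and ASF1, a histone chaperone (-0.72 ± 0.33, adjusted p = 0.616). The list median was -0.06. The sign of this median turned with coating: 0.258 on uncoated slides, -0.475 on coated slides and -0.314 with a coating term. The 15 G2/M genes had a median of -0.11, with none at an unadjusted p below 0.05. Histone genes had a median of -0.36 over 9 tested, and HTA1, the one with the smallest p, differed by -0.94 ± 0.63 (adjusted p = 0.795). Of the pre-replication genes MCM7, a subunit of the replicative helicase, differed by 0.85 ± 0.32 (adjusted p = 0.45). The 13 daughter and M/G1 genes had a median of -0.05. Of these 2 were higher at an unadjusted p below 0.05, against 4.27% of all genes, and 0 were lower. They were PST1, described below, and CYK3 (0.95 ± 0.42, adjusted p = 0.581).

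PST1 and SLT2, both wall genes, passed the threshold on the t60 arrays alone. PST1, a wall protein anchored by GPI, narrowly missed the threshold on flask means (2.94 ± 0.63, adjusted p = 0.0523), with 2.11, 0.89, 0.75 and 0.65 in dSWI4 against strain means from -2.31 in dZAP1 to -1.58 in dHMO1. Only 1 of 21 other flasks, dHMO1 at 1.29, reached the dSWI4 values of PST1, and the 5 wild type flasks were all below 0, from -1.86 to -0.67. At t60 the dSWI4 flasks of PST1 were at 3.79, 2.77, 1.78 and 3.63, and no other strain had a flask above 1.52. The t60 difference was 4.09 ± 0.76 (adjusted p = 0.0247) and that at t30 1.74 ± 0.81 (adjusted p = 0.801). PST1 passed the threshold in 10 of 47 alternatives (adjusted p 0.00912 to 0.0456 in these, and up to 1.00 in the others), among them the fits without dHMO1 and without dCIN5. The change between the times was 2.23 ± 0.92 and was not past the threshold (adjusted p = 0.998).

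SLT2, the kinase of the wall integrity pathway, had t60 values of 2.61, 3.14, 3.05 and 1.38 in dSWI4 against strain means from -0.40 in dGLN3 to 0.67 in dHMO1. Its t60 difference was 2.29 ± 0.40 (adjusted p = 0.0125). At t30 the SLT2 flasks ranged from -1.54 to 2.28 in dSWI4 and the difference was 0.34 ± 0.52 (adjusted p = 0.996). The SLT2 difference on flask means, 1.32 ± 0.36, was not past the threshold (adjusted p = 0.222). On flask means SLT2 differed by 0.75 ± 0.47 on uncoated slides and by 2.54 on coated slides, where dSWI4 has 1 flask. For PST1 these differences were 2.57 ± 0.41 and 3.96. Coating was not tested on the t60 arrays alone. The change of the SLT2 difference between the times was 1.93 ± 0.59 (adjusted p = 0.979).

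The t60 arrays alone gave 7 calls of 5902 genes (0.119%), YPL088W, NPL4 and GIC2 with SLT2, PST1, PRM10 and YIL082W, the last 4 of which were named for these calls after their values were seen. PRM10 encodes a membrane protein regulated by pheromone, and its t60 difference was 2.41 ± 0.39 (adjusted p = 0.0125). The t30 arrays alone gave 2 calls of 5896 genes (0.0339%), ZNF1 and TOS4.

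Of 26 wall and integrity genes tested on flask means none was called, and the list median was 0.16. PST1 is not on this list. At an unadjusted p below 0.05, 4 were higher and 1 lower, against 4.27% and 3.64% of all genes. With the t30 arrays alone the median was -0.07 over 26 genes, and 2 were higher and 2 lower at an unadjusted p below 0.05. Of all 5896 genes at t30, 357 had such a p in either direction. At t60 alone the median was 0.29 over 25 genes and 5 were higher at an unadjusted p below 0.05, against 251 of all 5902 genes at t60 (4.25%). Besides SLT2 these were RLM1, the transcription factor under Slt2 (1.24 ± 0.33, adjusted p = 0.176), KDX1, a kinase made in response to wall stress (1.85 ± 0.41, adjusted p = 0.0738), YPS1, a wall protease (2.13 ± 0.65, adjusted p = 0.3), and CWP1. GAS3, a relative of the glucan elongating enzymes, was the lower gene on flask means (-0.94 ± 0.36, adjusted p = 0.479). Of the 25 wall and integrity genes at t60, 19 had positive differences. The negative ones included UTR2 (-0.83 ± 0.63), GAS3 (-0.60 ± 0.35) and GAS5 (-0.58 ± 0.48). The SBF target CRH1 had a t60 difference of 2.86 ± 0.71 (adjusted p = 0.108). The SBF targets FKS1 and SRL1 had t60 differences of -0.69 ± 0.52 and -0.81 ± 0.48.

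One gene passed the test of the change of the difference from t30 to t60, out of 5651 (0.0177%), and 234 had an unadjusted p below 0.05 (4.14%). CWP1 encodes a mannoprotein of the wall. In dSWI4 its t30 values were -3.59, -3.24, -1.55 and -1.43 and its t60 values 0.12, 2.11, 1.04 and 2.22, so it climbed in all 4 flasks. The t60 minus t30 change was larger in dSWI4 than in the other strains by 3.71 ± 0.54 (adjusted p = 0.00343), whose changes averaged 0.12. The call was lost without dSWI4 flask 2 (adjusted p = 0.0971, 157 genes at an unadjusted p below 0.05) and without the dCIN5 strain (279). In recovery CWP1 reached 7.07, 8.11, 10.20 and 4.82 in dSWI4, and the other strain means ran from 2.65 to 4.61.

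**Figure D4:**
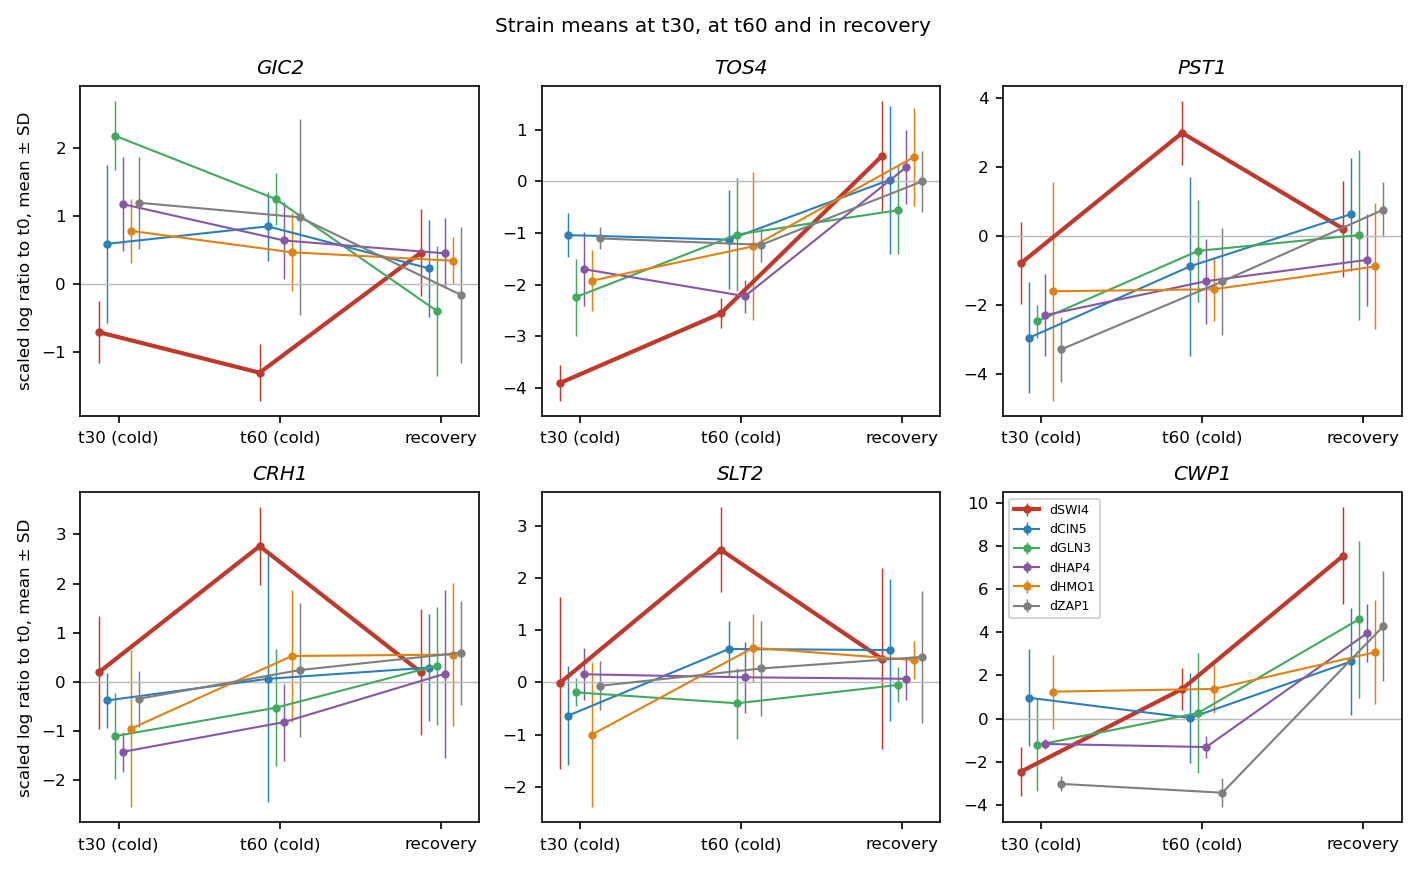
Strain means with SD (scaled log ratio to t0, vertical axis) at t30, at t60 and as the mean of both recovery times (horizontal axis) of GIC2, TOS4, PST1, CRH1, SLT2 and CWP1 in the 6 deletion strains; the thick red line is dSWI4. At t60 the dSWI4 mean was 2.99 for PST1, 2.76 for CRH1 and 2.54 for SLT2, and its recovery mean was 7.55 for CWP1.

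The cold minus recovery comparison asked whether the difference of dSWI4 changed when the cells went back to 30 °C. It called 12 of 5849 genes (0.205%), 6 in each direction, and 637 had an unadjusted p below 0.05 (10.9%). HXK1, a hexokinase of glucose-poor growth, had cold means of -0.74, -1.27, -1.03 and -1.45 in dSWI4 and recovery means of 5.31, 4.67, 7.31 and 2.30. Its cold minus recovery difference from the other strains was -4.55 ± 0.75 (adjusted p = 0.00468). ALD3, an aldehyde dehydrogenase of stress, had recovery means of 3.69, 3.24, 3.10 and 3.09 in dSWI4 and a difference of -2.76 ± 0.43 (adjusted p = 0.00468).

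NFG1, a regulator of filamentous growth, had recovery means from 3.69 to 6.84 in dSWI4 against other strain means from 0.40 to 1.14 (-4.12 ± 0.69, adjusted p = 0.00468). HXT4, a glucose transporter, had a cold mean of 0.67 in dSWI4 against 2.40 in the others and a recovery mean of 0.86 against -1.01 (-3.60 ± 0.61, adjusted p = 0.00493). In recovery all 4 NFG1 flasks of dSWI4 lay above every other strain mean, whereas 1 other strain mean reached 3.57 for ALD3 and 3.50 for HXK1, each within the range of the dSWI4 flasks. None of HXK1, ALD3 and NFG1 was called in the cold.

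Of the genes with the opposite sign, BSC1 had cold means of 6.15, 4.16, 7.55 and 3.75 in dSWI4 and recovery means from -2.45 to -0.78. BSC1 thus went from above t0 to below it in every dSWI4 flask. The other strains went the same way on average, from 2.07 in the cold to -0.40 in recovery. Their strain means ran from 0.63 to 4.17 in the cold and from -0.63 to 0.02 in recovery. The cold minus recovery difference of BSC1 was 4.47 ± 0.86 (adjusted p = 0.0199). CPA1, a subunit of carbamoyl phosphate synthetase for arginine, gave 3.33 ± 0.72 (adjusted p = 0.0497). SLZ1, a meiotic gene, gave 1.97 ± 0.33 (adjusted p = 0.00468). ZNF1 gave 2.29 ± 0.48 (adjusted p = 0.0439), its recovery mean in dSWI4 being -0.02. LUC7, YEL073C and CIM1 completed the 12 calls with GIC2. The calls of CPA1 and CIM1 were lost whichever dSWI4 flask was left out, those of BSC1 and LUC7 without flask 1, 2 or 3, those of GIC2 and YEL073C without flask 1 or 2, and that of ZNF1 without flask 1 or 3. HXT4 lost its call without flask 1 and NFG1 without flask 2.

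No cytosolic ribosomal protein gene was called. Of 128 tested, 13 differences were positive, against 2979 of all 6039 genes, and the median was -0.43. At an unadjusted p below 0.05, 17 were lower and none higher, against 3.64% and 4.27% of all genes. Strain medians were -0.94 in dSWI4, -0.91 in dZAP1, -0.76 in dHAP4, -0.62 in dCIN5, -0.10 in dGLN3 and -0.05 in dHMO1, so dSWI4 lay beside dZAP1 and apart from the last 2. Hmo1 is itself a factor of ribosomal protein genes, and without dHMO1 the median difference was -0.33 and 10 genes were lower at an unadjusted p below 0.05. The counts differed with coating: with it as a term 33 differences were positive and 2 genes were lower at that p (median -0.30), on uncoated slides 41 and 2 (median -0.26), and on coated slides 38 and 3 of 129 (median -0.34). RPS27A had -0.74, -0.44, -0.27 and -0.56 in dSWI4 against strain means from 0.16 to 1.39 (difference -1.14 ± 0.37, adjusted p = 0.334). RPS14B differed by -1.29 ± 0.41 (adjusted p = 0.328) and RPS24A by -0.97 ± 0.35 (adjusted p = 0.407). Many of these genes have near-identical copies, and signal shared between copies was not tested. Ribosome biogenesis genes had a median difference of -0.12 over 65 genes, with strain medians from 1.04 in dHMO1 to 1.91 in dHAP4 and 1.47 in dSWI4. The sign of that median difference turned with coating, being -0.54 on uncoated slides with 11 genes lower at an unadjusted p below 0.05, 0.41 on coated slides, and 0.17 with a coating term.

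**Figure D5:**
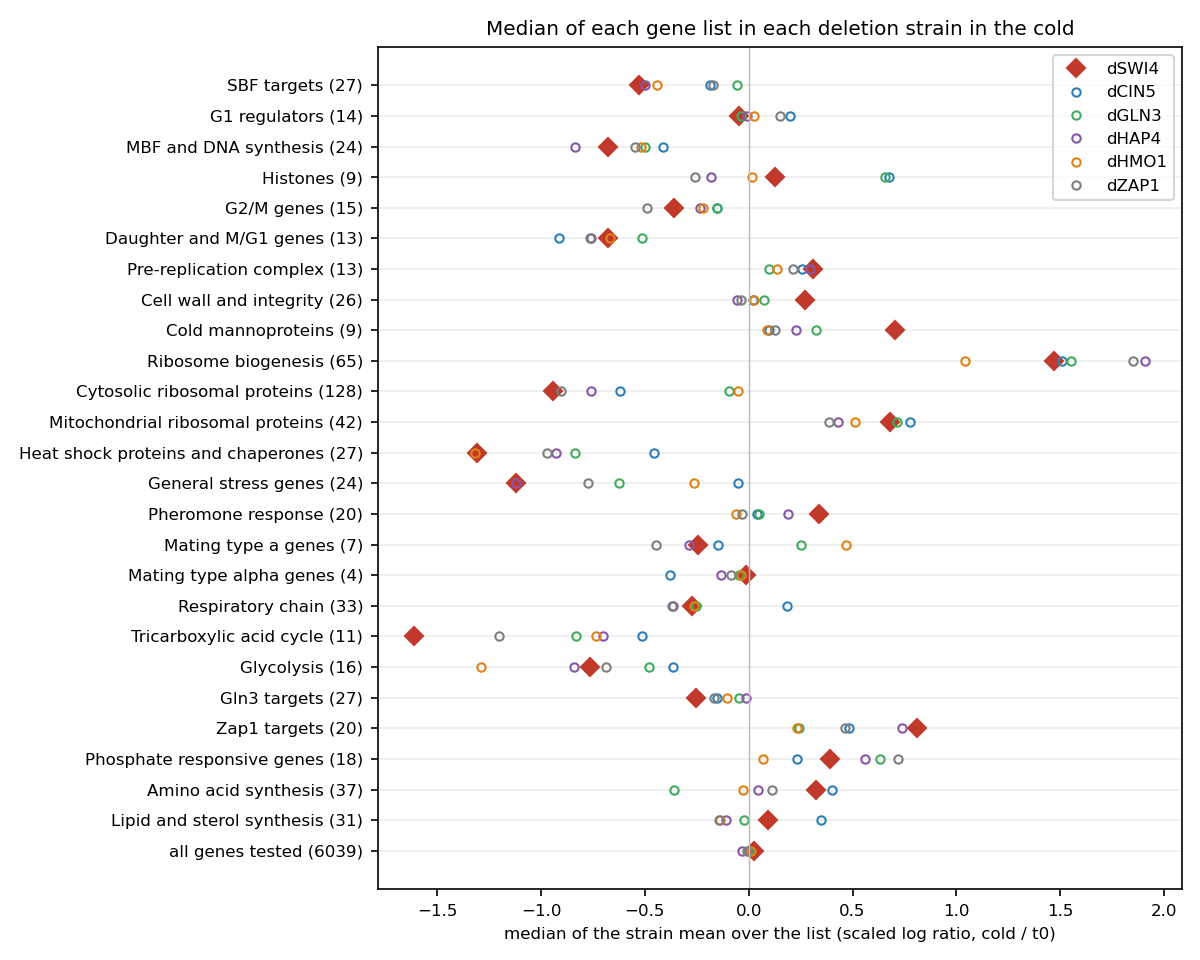
Median over each gene list (vertical axis, number of genes tested) of the strain mean in the cold (scaled log ratio of cold over t0, horizontal axis); red diamonds are dSWI4 and open circles the other deletion strains. The dSWI4 median is the lowest of the 6 strains for the tricarboxylic acid cycle genes at -1.61 and the highest for the cold mannoproteins at 0.70, where the median of the gene by gene differences was -0.07.

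Of 11 tricarboxylic acid cycle genes 3 were lower at an unadjusted p below 0.05, against 3.64% of all genes. None passed the adjustment, and the median was -0.25. CIT1, mitochondrial citrate synthase, had -1.45, -1.77, -1.39 and -2.09 in dSWI4 against strain means from -0.87 in dZAP1 to 0.43 in dHMO1 (difference -1.57 ± 0.40, adjusted p = 0.166). All 4 CIT1 flasks of dSWI4 lay below each other strain mean, and 1 of 21 other flasks overlapped. IDH1, a subunit of isocitrate dehydrogenase, differed by -0.87 ± 0.31 (adjusted p = 0.407) and MDH1, malate dehydrogenase, by -0.79 ± 0.35 (adjusted p = 0.581). In recovery the differences of CIT1, IDH1 and MDH1 were positive, at 1.10, 1.00 and 0.91.

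The comparators lack factors with target lists of their own. Of 27 Gln3 targets, genes of nitrogen use, none was called, and the median was -0.12. At an unadjusted p below 0.05, 1 was higher and 2 lower, against 4.27% and 3.64% of all genes. ASP3-1, a wall asparaginase, differed by 1.24 ± 0.41 (adjusted p = 0.352) and PUT1, proline oxidase, by -1.14 ± 0.36 (adjusted p = 0.324). Of 20 Zap1 targets, genes of zinc supply, none was called and the median was 0.22. The strain median of the Zap1 targets was 0.81 in dSWI4, 0.74 in dHAP4, 0.48 in dCIN5, 0.46 in dZAP1, 0.24 in dGLN3 and 0.23 in dHMO1. PST1 is a member of this list and its highest difference.

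Lists of mitochondria and energy gave no called gene. Of 42 mitochondrial ribosomal protein genes 2 were higher and 2 lower at an unadjusted p below 0.05, against 4.27% and 3.64% of all genes. Their median was 0.03. MRPL8 differed by 0.80 ± 0.28 (adjusted p = 0.396) and MRPL25 by -0.78 ± 0.34 (adjusted p = 0.558). The 33 respiratory chain genes had a median of -0.21 in the cold and 0.63 in recovery, and QCR9, a subunit of the cytochrome bc1 complex, was the gene with an unadjusted p below 0.05 (-0.61 ± 0.27, adjusted p = 0.581). On uncoated slides the respiratory chain median in the cold was 0.03 and on coated slides -0.30. The 16 glycolysis genes had a median of -0.08 with none at an unadjusted p below 0.05, and it too turned with coating, from -0.29 on uncoated slides to 0.46 on coated ones and 0.28 with a coating term.

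General stress genes had a median difference of -0.31 over 24 genes in the cold and 0.96 in recovery, against 0.03 for all genes in recovery. Their cold median moved with slide coating: it was 0.24 on uncoated slides and -0.68 on coated ones, and the part of coating was not tested beyond these values. GSY2, a glycogen synthase, differed by -0.93 ± 0.27 (adjusted p = 0.281) and TFS1, an inhibitor of carboxypeptidase Y, by -1.22 ± 0.45 (adjusted p = 0.449). Of the chaperone genes BTN2, a protein of aggregate sorting, differed by -1.68 ± 0.58 (adjusted p = 0.372), and the list median was -0.20.

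Amino acid synthesis genes also had medians that differed with coating, -0.09 on uncoated and 0.94 on coated slides, with 0.22 over all slides. Over all slides 3 of 37 genes were higher at an unadjusted p below 0.05, against 4.27% of all genes. Of 9 cold mannoproteins none was called, 4 had positive differences, and the median difference was -0.07 although the strain median was highest in dSWI4. TIR1, a wall mannoprotein made in the cold and without oxygen, had 2.44, 2.01, 3.01 and 1.25 in dSWI4 (difference 1.27 ± 0.41, adjusted p = 0.328), and its wild type mean was 2.02. TIP1, another mannoprotein of this list, lay below the others (difference -0.84 ± 0.42, adjusted p = 0.635). PHO84, the high-affinity phosphate transporter, had 6.94, 5.86, 3.17 and 5.65 in dSWI4 and strain means from 1.06 to 5.64 elsewhere, and 12 of 21 other flasks overlapped. ERG28, a scaffold of sterol synthesis, had 1.31, 1.02, 1.22 and 1.77 in dSWI4 (difference 1.00 ± 0.30, adjusted p = 0.289).

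Over all genes 2979 of 6039 differences were positive. All 7 genes specific to mating type a had negative differences, from -2.16 to -0.01 with a median of -0.26. The 4 genes of mating type alpha had positive ones with a median of 0.18. None was called. These signs were not shared by all settings: 3 of 7 a genes were positive on uncoated slides, and only 2 of 4 alpha genes were positive with a coating term, on coated slides and at t60 alone. BAR1, the protease that degrades alpha factor, had values in 3 dSWI4 flasks, -4.25, -4.22 and -3.75, and strain means from -2.39 to -0.85 elsewhere (difference -2.16 ± 0.73, adjusted p = 0.366). The BAR1 flasks overlapped with 2 of 19 others, and MFA2, an a-factor gene, differed by -0.89 ± 0.50 (adjusted p = 0.713).

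The genes next to SWI4 in the R64 annotation are KAP123 and LSM4. KAP123, an importin, differed by -0.51 ± 0.33 (adjusted p = 0.785) and LSM4, an mRNA decay and splicing factor, by 0.05 ± 0.31 (adjusted p = 0.984). Of the factors deleted in the other strains, HMO1 differed by 0.50 ± 0.42, HAP4 by -0.51 ± 0.45, CIN5 by -0.38 ± 0.34, ZAP1 by -0.29 ± 0.71 and GLN3 by 0.04 ± 0.27, and the strain that lacks each gene is among those averaged.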

How the data were processed

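Two-colour arrays compared a shifted sample with the t0 sample of its flask. The deposited values are scaled log ratios, named a score here because the authors' scaling left no log base. The submitters' processing notes name limma without a version or role. The method of background correction and normalization: not given in the sources used here. Direction (shifted over t0) follows the labels. Of 26 pairs of flask means taken as opposite dye within a strain, 25 correlated above 0 (median r 0.555). The shifted sample of dGLN3 flask 3 was in Cy5 at t15 but in Cy3 at t60, its only array used here. Pairs with that flask may therefore be counted under the wrong dye. Between single arrays of the same strain, time and dye, r was -0.0946 for a dGLN3 pair at t60 and -0.0506 for a dHMO1 pair at t30. The other such pairs had r of 0.189 to 0.77. Of the values on the arrays used, 3.79% were missing and stayed missing. Of the 6178 frames, 5674 matched a locus tag in the R64 table.

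The t30 and t60 values were averaged per flask, and the flask was the replicate. The labels say that flasks were grown independently. Genes needed 2 or more flasks in each strain. limma 3.58.1 in R 4.3.3 fitted a mean per strain and tested dSWI4 against the mean of the 5 other strain means, with p-values adjusted over all genes tested. The same test ran on t60 minus t30 (23 flasks) and on cold minus recovery (24 flasks). The fitting code was tested on simulated data. Alternatives were the dye, coating and flask number terms, other scalings, single times, and each flask and strain left out. The coating, single-time and dHMO1 sign alternatives ran for the cold comparison only. Figures used Python 3.11.15 and matplotlib 3.10.9. The number of arrays limits the precision, and no depth is given.

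Named genes were the called genes outside all other strain means (up to 12 per direction, filled to 4), up to 3 per gene list by smallest p (8 for SBF targets, 4 for G1 regulators), the deleted factors and neighbours of SWI4, and the 4 highest and 4 lowest in the other comparisons. The members and lists were chosen with earlier results of these data known. No sequences were used here.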

Additional observations from a re-analysis of the deposited data

Results flagged for a closer look

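Of 87 groups of flasks 5 had 1 flask far from the rest of its strain in the cold, and chance marks about 1 in 20 groups. For NPL4 these were dSWI4 flask 3 at 0.926, lower than the other dSWI4 flasks, and dHAP4 flask 1 at -0.82. For YPL088W dHMO1 flask 1 stood above its strain at 3.35, for GIC2 dZAP1 flask 2 lay below its strain at -0.49, and for PST1 dSWI4 flask 1 lay above at 2.11.

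The difference of dSWI4 from the other deletion strains itself changed between times or phases in 13 cases. CWP1 changed by 3.71 from t30 to t60. From cold to recovery the differences of BSC1 (4.47), CPA1 (3.33), ZNF1 (2.29), SLZ1 (1.97), YEL073C (1.82) and LUC7 (1.66) were higher in the cold than in recovery. Those of HXK1 (-4.55), NFG1 (-4.12), HXT4 (-3.6), ALD3 (-2.76), GIC2 (-2.34) and CIM1 (-1.68) were lower in the cold than in recovery. YEL073C, LUC7 and CIM1 are named because they passed this test, after their values were seen.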

How the results depend on the processing

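The direction of all 7 genes called in the cold was kept in 47 alternatives, and GIC2 kept its call in 40, ZNF1 in 39, TOS4 and YPL088W in 37, MET16 in 35, NPL4 in 34 and SUT1 in 18. These alternatives reuse the same arrays and are not independent, and some, such as the threshold of 0.01, cannot change a direction. The count of 7 became 2 without strain dGLN3 or dZAP1, 11 without dHMO1, 2 with t30 alone, and 4 and 3 with the sign of dHMO1 flask 2 or 4 turned. The t60 arrays of dGLN3 flask 2 and dHMO1 flask 3 are in the main fit but resembled recovery in an earlier analysis, not shown here. Without these 2 arrays the count became 4. It became 0 with a coating term or on coated slides and 1 on uncoated slides, which was not among the 7. Leaving out 1 flask gave 0 (without dSWI4 flask 1) to 11 (without dHMO1 flask 1 or 2), with 4 and 2 without dSWI4 flasks 3 and 4. The t30 to t60 count of 1 became 0 without strain dCIN5 and 0 to 2 with 1 flask left out (0 without dSWI4 flask 2, 2 without flask 3). The cold minus recovery count of 12 became 6 at an adjusted p below 0.01, 21 without strain dZAP1 and 4 to 18 with 1 flask left out (4 and 5 without dSWI4 flasks 1 and 2). ALD3, HXK1 and SLZ1 kept that call in 34 of 34 alternatives, HXT4 and NFG1 in 33, GIC2 in 32, YEL073C in 31, BSC1 in 29, LUC7 in 28, ZNF1 in 14, CIM1 in 13 and CPA1 in 12. The coating settings, the turned dHMO1 signs and the fit without the 2 arrays were not among these 34. Nor were they run for the t30 to t60 change, so the part of coating in the calls of both comparisons was not tested. Flask numbers did not pair the flasks: 56 same-number pairs had a median r of -0.0362, 14 of them above 0.1, and 2 of 4 dSWI4 flasks correlated best with their own number. With the number as a replicate block the counts were 5, 1 and 8, and NPL4 and SUT1 lost their calls (adjusted p 0.0836 and 0.129). Signs turned for SWI4 (0.0176 without dCIN5, 8e-04 at t30), PHO84 (-0.749) and SER3 (-0.0371) on uncoated slides, and PAU24 (-0.19) and EBP2 (0.18) on coated slides, none of which was called. The cause of these changes was not tested.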
